A study of Arabidopsis thaliana with 2 samples.

Results

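The cytochrome P450 genes of Arabidopsis were examined for peaks of MYB3R3-GFP, a MYB protein with 3 MYB repeats fused to green fluorescent protein. Members were the protein-coding genes of the 5 nuclear chromosomes whose symbol begins with CYP followed by digits, a letter and digits, a form that leaves out the cyclophilins. The rule found 224 of 27444 genes, and the gene table spells out cytochrome P450 for 223 of them (the entry of CYP71B11 has a misspelt name). A member had a peak when a peak overlapped the gene, or the 1000 bp to either side of it, by at least 1 bp. The family was chosen for its low share of peaks in these data, so that share is a description and carries no test.

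The ChIP library came from whole Col-0 seedlings that expressed MYB3R3-GFP, 9 days after germination, grown at 22 °C under continuous light in a liquid medium that held 2% sucrose. An anti-GFP antibody was used for the precipitation. No treatment was given, and the sources used here give neither the promoter of the fusion gene nor the state of the endogenous MYB3R3 gene. An input library from the same line was not analysed here. The data are the deposited list of 2931 peaks of 1 library, so there is no replicate error, and the read depth is unknown.

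Cytochrome P450 enzymes are haem proteins that use oxygen and electrons from NADPH, passed on by a reductase, to oxidise small molecules. In plants they form one of the largest enzyme families. They make and inactivate hormones, build lignin, cutin and suberin precursors, and produce defence compounds. Many of the genes arose by tandem duplication and lie side by side. MYB3R proteins are known for binding genes of the mitotic cell cycle.

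Of the 224 P450 genes, 11 had a peak (4.91%, 95% Wilson interval 2.76 to 8.58%) and 213 did not (95.1%). Among all protein-coding genes 3828 had one (13.9%). Because the rule used this measure, nothing is read from the difference. The interval covers counting error only. Of the 11 genes, 10 had 1 peak and CYP707A3 had 2, and no peak was shared between P450 genes. Median gene length was similar for the family and the genome, at 2052 and 2078 bp. The quartiles were 1865 and 2477 bp for the family, and 1323 and 3030 bp for all protein-coding genes. The merged windows of the family covered 0.864 Mb and held 13.9 peaks per Mb, against 30.7 per Mb in the 88.785 Mb of windows around all protein-coding genes. The density uses the peak calls that chose the family, so nothing is read from it either.

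**Figure D1:**
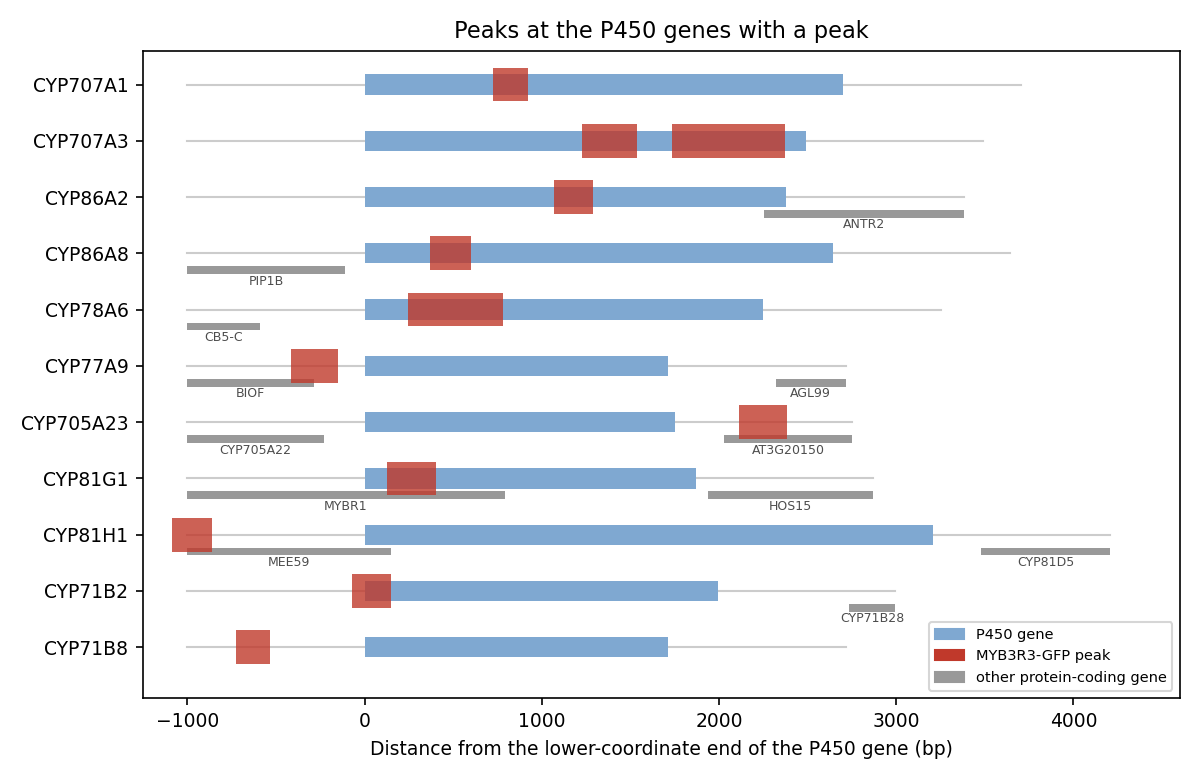
Positions of the 12 peaks at the 11 P450 genes with a peak, in bp from the lower-coordinate end of each gene; blue bars are the P450 genes, red bars the peaks, grey bars other protein-coding genes and thin lines the windows of 1000 bp to either side. Of the 12 peaks, 8 overlapped the P450 gene itself, and 4 overlapped another gene: those at CYP77A9, CYP705A23 and CYP81H1, which did not reach the P450 gene, and that at CYP81G1, which overlapped both; the direction of transcription is not shown.

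Genes of abscisic acid turnover had peaks in 2 of 4 cases, where 13.9% of all protein-coding genes had one. With 4 genes nothing is read from this count. The CYP707A genes encode the abscisic acid 8′-hydroxylases, which inactivate the hormone. CYP707A3 (AT5G45340) carried a pair of peaks inside the gene, on chromosome 5 from 18369760 to 18370070 (TAIR10, as are all peak positions here) and from 18370267 to 18370907. Their scores were 8.47 and 14.26, on the authors' scale. The wider peak, of 641 bp, was the widest at any P450 gene. CYP707A1 (AT4G19230) had a peak of 200 bp on chromosome 4 from 10521982 to 10522181, with its midpoint 822 bp inside the gene. Its score of 6.11 was the lowest at a P450 gene and ranked 2897 of 2931. No other protein-coding gene lay within 1000 bp of these 3 peaks, and all 3 scores were under the list median of 17.36. CYP707A2 and CYP707A4 had no peak, and the nearest lay 146069 and 14616 bp away, the former being the longest such distance in the family.

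In the group of cutin, suberin, wax and sporopollenin, 2 of 11 genes had a peak, against 13.9% of all protein-coding genes. With 11 genes nothing is read from this count. Both genes with a peak were among the 5 CYP86A genes, which encode fatty acid hydroxylases. CYP86A2 (AT4G00360), which contributes to cutin and is also called ATT1, had a peak on chromosome 4 from 161714 to 161932, near the middle of the gene, with a score of 15. The neighbouring gene ANTR2 lay 965 bp from this peak. CYP86A8 (AT2G45970), the LACERATA gene of the epidermis, had one on chromosome 2 from 18912467 to 18912693 with a score of 12.89. It lay wholly inside the gene, 485 bp from the aquaporin gene PIP1B. Both scores were under the list median of 17.36. CYP86A1, a hydroxylase of root suberin, and CYP86A4 and CYP86A7 had no peak, with distances of 31319, 6272 and 24840 bp to the nearest. Nor had CYP86B1, a hydroxylase of suberin, CYP77A4, which epoxidises fatty acids, or CYP77A6, a hydroxylase of cutin, at 4484, 3768 and 1648 bp.

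Among the 6 CYP78A genes, a subfamily that acts on the size of organs and seeds, the gene with a peak was CYP78A6. Of all protein-coding genes 13.9% had a peak, and with 6 genes nothing is read from this count. CYP78A6 (AT2G46660, also called EOD3) promotes seed growth. Its peak on chromosome 2 from 19153574 to 19154111 was 538 bp wide, had a score of 50.69, and lay wholly inside the gene with the midpoint 514 bp from the nearer end. It ranked 391 of 2931, the highest-scoring peak to overlap a P450 gene. The cytochrome b5 gene CB5-C lay 835 bp away. The nearest peak was 2837 bp from CYP78A9, which acts on fruit and seed size, and 44014 bp from CYP78A5 (KLUH), which acts on leaves and floral organs. CYP78A7, CYP78A8 and CYP78A10 lay 13605, 10785 and 28192 bp from one.

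CYP77A9 (AT5G04630) had the highest score of the family, 56.25, in a peak on chromosome 5 from 1330020 to 1330287. That peak overlapped the end of BIOF, a gene of biotin synthesis, and lay 150 bp outside CYP77A9. The peak of CYP705A23 (AT3G20140) had a score of 31.97 on chromosome 3 from 7031260 to 7031526. It overlapped the neighbouring gene AT3G20150 and lay 363 bp outside the P450 gene. CYP81H1 (AT4G37310) was reached at 860 bp by a peak on chromosome 4 from 17554812 to 17555039 that overlapped MEE59, with a score of 7.95. For these 3 genes another protein-coding gene was nearer to the peak. When each peak counted only for its nearest gene, or for each gene tied as nearest, 8 P450 genes (3.57%) and 9.19% of all genes had a peak. The 8 include CYP81G1, which was tied with its neighbour MYBR1. With only the peaks that touched the window of 1 gene, 4 P450 genes (CYP707A1, CYP707A3, CYP71B2 and CYP71B8) and 4.22% of all genes had one.

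CYP81G1 (AT5G67310) shared its peak with MYBR1, the gene of the transcription factor MYB44. The peak spanned 26855342 to 26855621 on chromosome 5, had a score of 13.92, and had its midpoint inside both genes, which overlap in the table. CYP71B2 (AT1G13080) had a peak across a gene end on chromosome 1 from 4458929 to 4459151, with a score of 10.72 and its midpoint 38 bp inside the gene. CYP71B8 (AT5G35715) had one 532 bp outside the gene, on chromosome 5 from 13880495 to 13880690, with a score of 7.83. At 196 bp it was the narrowest peak of the family. Neither of these last peaks touched the window of another protein-coding gene.

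**Figure D2:**
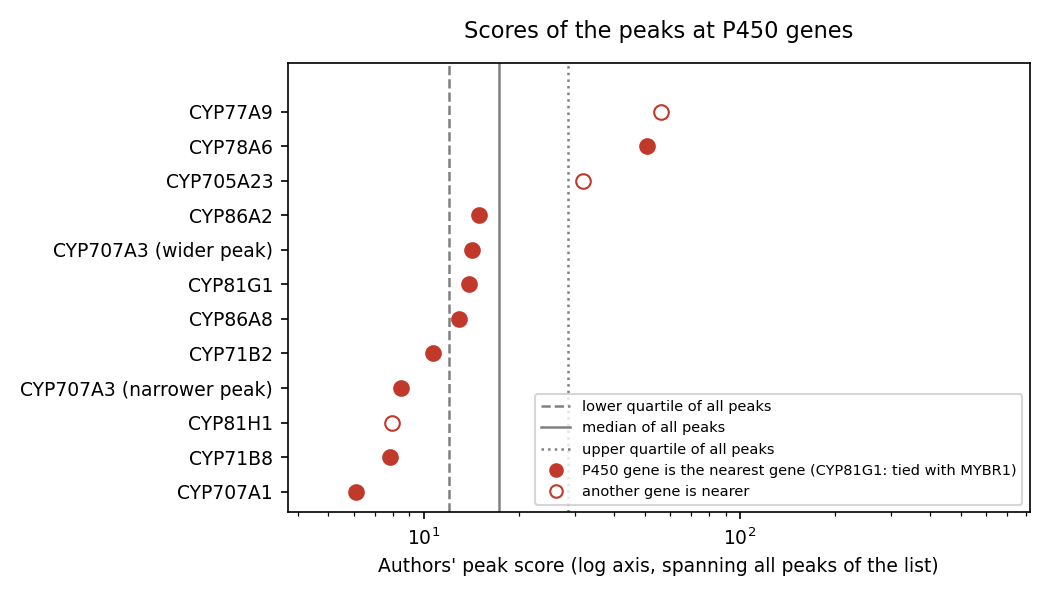
Authors' score of each of the 12 peaks at P450 genes, on a log axis from the lowest to the highest score of the list; lines mark the quartiles (11.98 and 28.53) and the median (17.36) of all 2931 peaks. Open points are peaks nearer to another gene, and 3 points lie above the upper quartile.

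The scores of the 12 peaks ranged from 6.11 to 56.25 with a median of 13.4, while those of all 2931 peaks ranged from 4.13 to 749.56 with a median of 17.36. Of the 12, 9 were below the list median, 5 were below the lower quartile of 11.98 (CYP707A1, CYP71B8, CYP81H1, the narrower peak of CYP707A3, and CYP71B2) and 3 were above the upper quartile of 28.53 (CYP77A9, CYP78A6 and CYP705A23). No score lay between 15 and 31.97. A score of 100 or more was reached by 137 of the 2931 peaks of the list and by 0 of the 12 at P450 genes. With 12 peaks, nothing is read from this 0. Widths ranged from 196 to 641 bp with a median of 247.5 bp, and the median of the whole list was 275 bp. Of the 3 highest scores, only that of CYP78A6 belonged to a peak for which the P450 gene was the nearest gene. The score was not used by the rule, but 12 peaks of 1 library are no replicates, and no test was made. With the higher-scoring 1467 peaks 3 P450 genes (1.34%) and 7.59% of all genes had a peak. With the highest 733 peaks the same 3 genes had one, against 4.14% of all genes.

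All 8 peaks that overlapped a P450 gene had their midpoint inside it, at 38 to 1180 bp from the nearer end. For CYP71B2 this was within 200 bp of the end, and for the other 7 peaks it was deeper, with distances from 266 bp (CYP81G1) to 1180 bp (CYP86A2). Across all protein-coding genes, 976 of 1655 midpoints inside a gene (59.0%) lay within 200 bp of an end. The median depth was 499.8 bp in P450 genes and 144.5 bp in all genes. The 8 peaks belong to 7 genes of 1 library, so this too is a description. Strand was not used here, and an end can be the 5′ or the 3′ end. Exons and introns were not assigned.

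In the order of protein-coding genes, 111 P450 genes lay next to another in 36 runs of 2 or more, and 113 had no P450 gene as a neighbour. Only genes with a CYP symbol counted as P450 genes here. P450 genes under another symbol, described below, were part of no run. A peak was found at 3 of the 111 (2.7%) and at 8 of the 113 (7.08%), against 13.9% of all protein-coding genes. These counts use the same peak calls as the choice of the family, and nothing is read from them. All 3 genes of runs that had a peak, CYP705A23, CYP81H1 and CYP71B2, stood at an end of their run, and each peak lay on the side facing away from the other copies. They belonged to runs of 7, 6 and 4 genes. The 39 genes with a P450 gene on both sides had no peak, again by the calls that chose the family. The longest run, of 9 CYP71B genes on chromosome 3 from CYP71B16 to CYP71B24, had no peak, nor had a second chromosome 3 run of 7 CYP71B genes or the run of 6 CYP72A genes.

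Of the 282 protein-coding genes that directly flank the P450 genes or their runs, 33 (11.7%, 95% Wilson interval 8.46 to 16.0%) had a peak within 1000 bp, against 13.9% of all genes. P450 genes under a symbol other than CYP were not left out of the flanking genes. A peak overlapped the gene itself in 23 of the 282 (8.16%), in 8.39% of all protein-coding genes and in 7 of the 224 P450 genes (3.12%). Some of these peaks are those already described, at BIOF, AT3G20150, MEE59 and MYBR1. At longer range, 34.4% of the flanking genes lay within 10000 bp of a peak, against 44.6% of all genes. The P450 genes had 29.9%. Their shares use the peak calls that chose the family, and the flanking genes adjoin them, so these shares are not independent. Nothing is read from the differences.

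**Figure D3:**
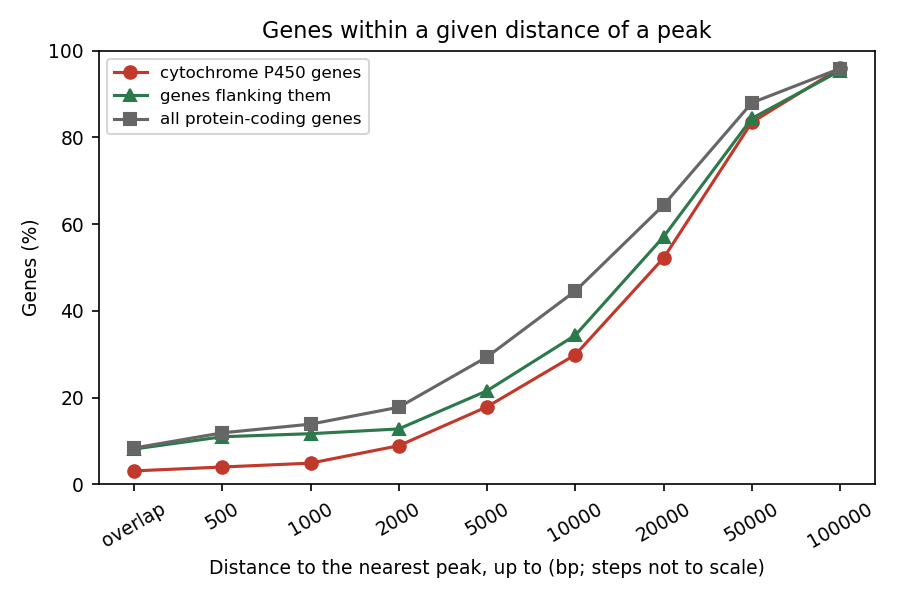
Share of genes (%) with the nearest peak up to a given distance (bp, steps not to scale), for the 224 P450 genes, the 282 protein-coding genes that flank them and all 27444 protein-coding genes. At overlap the shares are 8.16% for flanking genes, 8.39% for all genes and 3.12% for P450 genes. At 10000 bp they are 34.4, 44.6 and 29.9%. The P450 genes were chosen by these peak calls and the flanking genes adjoin them, so nothing is read from the order of the lines.

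The median distance to the nearest peak was 18663 bp for P450 genes, with quartiles of 7796.5 and 39583 bp, and 12196 bp for all genes. More than 10000 bp separated 157 of the P450 genes (70.1%) and 55.4% of all genes from the nearest peak. These distances use the peak calls that chose the family, and nothing is read from the difference. The threshold fell in a gap of the family: the farthest gene inside it was CYP81H1 at 860 bp, and the nearest outside was CYP96A13 at 1457 bp. Another 8 genes lay between 1564 and 1968 bp from a peak. They included CYP94C1, which acts on jasmonoyl-isoleucine, at 1564 bp. CYP712A1 lay 1598 bp from a peak with a score of 203.01 that overlapped UVI4, whose protein inhibits the anaphase-promoting complex. CYP77A6 lay 1648 bp from a peak that overlapped the P450 gene UNE9. The others were CYP89A9, CYP76C3, CYP71B38, CYP704B1 and CYP709B2. With windows of 2000 bp, 20 P450 genes (8.93%) and 17.8% of all genes had a peak.

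By subfamily, peaks were found in 8 of 60. CYP71B, the largest with 33 genes, had 2 genes with a peak, and CYP705A had 1 among 24, against 13.9% of all protein-coding genes. Of the 12 subfamilies with 5 or more genes, 8 had no peak, 72 genes in all. These were CYP71A (16 genes), CYP96A (13), CYP81D (9), CYP72A (8), CYP706A (7), CYP76C (7), CYP702A (6) and CYP89A (6). The CYP702A genes were the most remote of these, 62879 to 118254 bp from a peak. The subfamily counts are small and use the peak calls that chose the family, so nothing is read from them. By chromosome, P450 genes with a peak numbered 1 of 47, 2 of 33, 1 of 61, 3 of 42 and 4 of 41 on chromosomes 1 to 5. The share of all genes ranged from 12 to 14.6% between chromosomes. The P450 counts are too small for a comparison of chromosomes.

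Grouped by the role of the enzyme, 61 P450 genes fell into 13 groups. Of the 61, 5 genes had a peak, against 13.9% of all protein-coding genes. These were the CYP707A, CYP86A and CYP78A6 genes above, in the groups of abscisic acid, of cutin, suberin, wax and sporopollenin, and of organ growth. The other 10 groups had no peak at a member, that is, at a gene with a CYP symbol. Genes of 4 of these groups that the table lists under another symbol (BAS1, GA3, AOS and C4H) had one and are described separately. The groups held 1 to 13 members each and use the peak calls that chose the family, so nothing is read from a group without a peak. Among the members, the 13 genes of glucosinolates and camalexin lay 2921 to 35800 bp from the nearest peak. They included CYP79B2 and CYP79B3, which turn tryptophan into indole-3-acetaldoxime, at 31234 and 25628 bp. CYP83B1, which oxidises aldoximes in glucosinolate synthesis, lay at 15073 bp and CYP71A13 of camalexin synthesis at 25183 bp.

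Genes of growth hormones had no peak under a CYP symbol, where 13.9% of all protein-coding genes had one. These were 2 genes of brassinosteroids, 3 of gibberellins, 2 of cytokinins and 1 of strigolactones. With so few genes nothing is read from this, and BAS1 and GA3, under other symbols, had a peak. CYP90D1 of brassinosteroid synthesis lay 25553 bp from one, and CYP72C1 of brassinosteroid inactivation 8680 bp. CYP88A3, an ent-kaurenoic acid oxidase of gibberellin synthesis, lay 8187 bp from one. CYP735A1 and CYP735A2, which make trans-zeatin type cytokinins, lay 85566 and 8413 bp from one. CYP711A1 (MAX1) of strigolactone synthesis lay 15032 bp away. CYP51G1, the sterol 14-demethylase, lay 4102 bp away, and CYP97A3 of carotenoid hydroxylation 22871 bp. The reductase genes ATR1 and ATR2, which pass electrons to P450 enzymes, and CBR, a cytochrome b5 reductase gene, also had no peak in their windows.

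**Figure D4:**
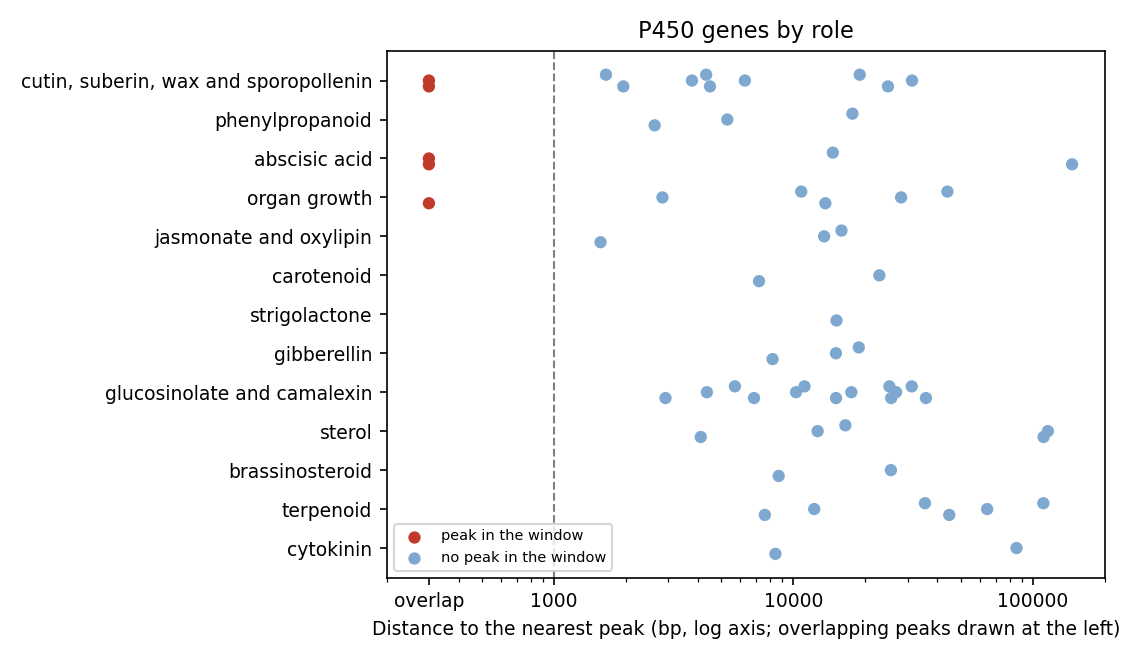
Distance from each of 61 P450 genes with an assigned role to the nearest peak (bp, log axis, overlapping peaks drawn at the left), 1 point a gene; the dashed line marks 1000 bp. The 5 red points, in 3 of 13 groups, are genes with a peak, and all of these overlap one. Among all protein-coding genes, 13.9% had a peak in the window.

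The symbol rule leaves out P450 genes that the table lists under another name. For 16 genes a P450 name stood among the synonyms alone, and 5 of these had a peak (31.2%, 95% Wilson interval 14.2 to 55.6%), against 13.9% of all protein-coding genes and 4.91% of the genes with a CYP symbol. The 16 genes are few, and those with a CYP symbol were chosen for a low share, so nothing is read from the differences. C4H, the cinnamate 4-hydroxylase of the phenylpropanoid pathway, had 2 peaks, the higher with a score of 22.31. AOS, the allene oxide synthase of jasmonate synthesis, had a score of 20.71 on chromosome 5 from 17098312 to 17098601. BAS1, which inactivates brassinosteroids, had 11.71, and UNE9 had 27.89. GA3, the ent-kaurene oxidase of gibberellin synthesis, was reached at 202 bp by a peak with a score of 81.58 that was nearest to RLP52. With these genes added, 16 of 240 P450 genes (6.67%) had a peak. The other 11 had none, among them DWF4, CPD and ROT3 of brassinosteroid synthesis and PAD3 (CYP71B15) of camalexin synthesis.

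A pair of other families of enzymes that act on small molecules was counted in the same way. Peaks were found at 4 of 58 UGT genes (6.9%, 95% Wilson interval 2.71 to 16.4%), which encode glycosyltransferases, and at 8 of 47 GST genes (17.0%, 8.89 to 30.1%), which encode glutathione transferases. The share of all protein-coding genes, 13.9%, lies within both intervals. No test was made against the P450 genes, which were chosen by this measure. With windows of 0 bp the shares were 3.12% for P450, 5.17% for UGT and 8.51% for GST genes, against 8.39% of all genes.

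**Figure D5:**
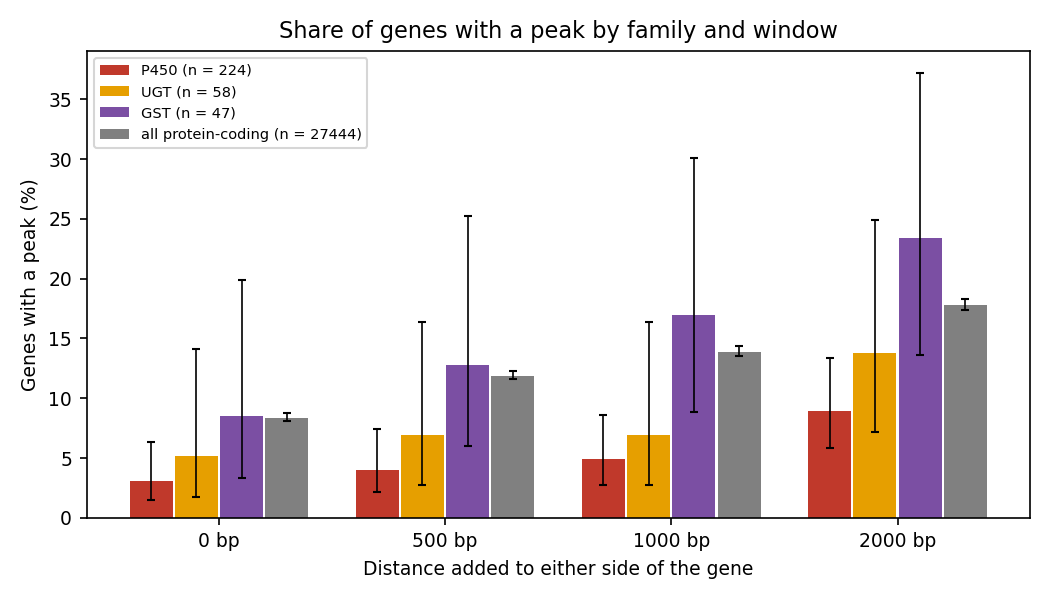
Share of genes (%) with a peak in the P450, UGT and GST families and among all protein-coding genes, when 0, 500, 1000 or 2000 bp are added to either side of the gene; error bars are 95% Wilson intervals (counting error only). The P450 bars, from 3.12 to 8.93%, are the lowest at each width, but the family was chosen for its low share of peaks.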

How the data were processed

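MYB3R3-GFP binding was taken from the peak list of 1 ChIP library. The build was TAIR10, and MACS2, Bowtie 0.12.7 and SAMtools 0.1.18 are named, per the submitters' processing notes. The sources used here give no peak threshold, read depth or use of the input. The authors deposited 1 score for each peak. No source used here gives its formula, and it served only to rank and filter peaks within the list. The other deposited values are peak starts and ends in bp. Starts were read as counting from 0 and are printed counting from 1.

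Gene names and positions came from a RefSeq table of TAIR10.1. As its name differs from that of the build of the peaks, its coordinates are not printed. Peak midpoints lay within 500 bp of a gene end in 77.3% of cases, and in 39.6 to 42.2% after shifts of 4000 or 5000 bp. Strand and sequence were not used, so the planned motif search was not run and no sequence is shown. Distances run between facing ends, with 0 for overlap. The nearest gene of a peak was that at the shortest distance, then that nearest to its midpoint. Genes tied on both were each counted as nearest.

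The members, role groups and lists were chosen with earlier results of these data known. Every P450 gene with a peak was named, by rule. The named genes without one came from the role list, the 1000 to 2000 bp range, or subfamilies and runs picked after their values were seen. Counts of runs, flanking genes and midpoint depth were also added after the data were seen. No test was made, since 1 library has no replicates. Alternatives changed the window, score threshold, overlap, assignment and membership. The window search was tested on simulated peaks. Calculations ran in Python 3.11.15 with SciPy 1.17.1, NumPy 2.4.6 and pandas 2.3.3, and figures were drawn with matplotlib 3.10.9.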

Additional observations from a re-analysis of the deposited data

How the results depend on the processing

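The count of P450 genes with a peak (11, or 4.91%, against 13.9% of all genes) was recomputed under 10 alternatives. With windows of 0 bp it was 7, against 8.39% of all genes. With 2000 bp it was 20 (8.93%), against 17.8%. With the higher-scoring 1467 peaks, and also with the highest 733, it was 3 (1.34%), with a median score of 50.69, against 7.59 and 4.14% of all genes. With peaks that touched 1 gene it was 4 (1.79%), with a median score of 8.47, against 4.22%. These settings use fewer or more peaks or bases by construction. Under the other 5 alternatives the count was 8 to 16. With 500 bp it was 9 (4.02%), against 11.9% of all genes. With the midpoint or 50% of the peak it was 11 (4.91%), against 13.4%. With the nearest gene it was 8 (3.57%), against 9.19%. With synonyms added it was 16 of 240 genes (6.67%), against 13.9%. The share of P450 genes was below that of all genes under all 10, but the family was chosen for this. No paired analysis was possible because a single ChIP library was deposited as peaks, and no library could be left out. Weak binding under the authors' peak threshold could not be seen in the list.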
